A study of Mus musculus with 24 samples.

Results

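The loss of Azin2 in subcutaneous adipose tissue (SAT) was read from 8 RNA sequencing libraries of 24 in the series. All SAT libraries of the genotype experiment were taken, by their labels and without any use of measured values. They came from whole SAT of male C57BL/6J mice: 3 libraries of genotype Azin2-/- and 5 of wild-type littermates (WT). Every mouse of both genotypes had eaten a diet with 60% of its energy from fat for 8 weeks, so no lean mice enter the comparison. The age of the mice and the construction of the Azin2 allele are not stated in the labels, which also describe no tissue-restricted deletion. Epigonadal adipose tissue (GAT) of the same experiment, with 4 Azin2-/- and 4 WT libraries, served for the comparison of depots.

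Azin2 encodes antizyme inhibitor 2, a catalytically inactive relative of ornithine decarboxylase. It binds antizymes, the proteins that send ornithine decarboxylase to the proteasome and restrain polyamine uptake, and so spares polyamine synthesis. Polyamine turnover draws on acetyl-CoA, which is also the carbon source of fatty acid and sterol synthesis in the adipocyte. White adipocytes store triglyceride. Thermogenic adipocytes burn fat through Ucp1 and use the deiodinase Dio2 to convert the prohormone thyroxine into active triiodothyronine.

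Libraries held 32.0 to 46.6 megareads of counts, and the genotypes did not differ in depth beyond their spread (36.4 ± 4.10 megareads in Azin2-/-, SD, n = 3; 39.0 ± 5.30 megareads in WT, SD, n = 5; two-sided exact permutation test, p = 0.536). Adipocyte markers such as Adipoq (1341 to 2715 CPM, counts scaled to the library total) were high in all 8, and the summed adipocyte list was lowest in Azin2-/- replicate 2 (23491 CPM) and WT replicate 3 (30242 CPM), against 36865 to 42336 CPM in the other 6. Those 2 libraries, called the muscle-rich pair below, carried skeletal muscle transcripts at a summed level of 76468 and 68613 CPM over 16 markers, against 125 to 292 CPM in the others. The pair has 1 library of each genotype. The summed muscle level averaged 25576 CPM in Azin2-/- and 13889 CPM in WT (exact permutation p = 0.75). Each mean rests on its 1 muscle-rich library, so this test cannot show that the levels were alike. Epididymal markers summed to at most 0.645 CPM and mesothelial markers to at most 3.45 CPM. The called genes and most gene lists are therefore given in all 8 libraries and again in the 6 without the pair (2 Azin2-/-, 4 WT). Other SAT genes are given from the 8 libraries unless the text says otherwise.

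Azin2 itself (ENSMUSG00000028789, GRCm38 chromosome 4, 128930233 to 128962442, minus strand) was measured at 11.4, 7.97 and 10.6 normalised CPM in the Azin2-/- libraries and at 15.6, 24.2, 16.4, 24.3 and 17.4 in WT. All 3 Azin2-/- libraries lay below all 5 WT libraries. The log2 fold change was -0.97 ± 0.203 (SE), with an adjusted p of 0.244 in edgeR's quasi-likelihood test, and without the muscle-rich pair -0.88 ± 0.209 (adjusted p = 0.171). Reads remained at the locus in the libraries labelled Azin2-/-, and the labels do not say which part of the gene was removed, so the counts check the labels only in part. Of 283 tested genes within 10 Mb of Azin2, 0 passed the test. In that window 10 genes were higher and 14 lower in all 3 Azin2-/- libraries than in all WT libraries, or 8.48% of the window against 7.28% of all tested genes.

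The first question of the design is which genes differ between genotypes in this depot. Of 16948 genes tested, 1 passed an adjusted p of 0.05 (0.00590%), and that gene was Dio2. Without the muscle-rich pair 8 of 17277 passed (0.0463%): Dio2, Acss2, Me1, Gpc1, Krt79, Ncan and Lipf were higher, and Fgf2 was lower. Before adjustment, 1745 genes had p under 0.05 in the 8 libraries and 2513 in the 6. A second description used below is whether the groups stay apart, that is, whether every Azin2-/- library lies above, or below, every WT library. In the 8 libraries 3.09% of tested genes stood apart as higher and 4.19% as lower. In the 6 libraries, where fewer values must be separated, the shares were 14.1% and 12.4%. Counts of list members apart, given below, are to be read beside these shares.

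Dio2 (ENSMUSG00000007682, chromosome 12, 90724552 to 90738438, minus strand) was the gene called in both fits. The sequence that precedes its RefSeq start (GRCm38.p6, minus strand, chr12:90739039-90739288) is shown because it holds the cAMP response element TGACGTCA, in capitals, to which factors of the CREB family bind. The RefSeq start lies upstream of the gene model used for counting.
Dio2: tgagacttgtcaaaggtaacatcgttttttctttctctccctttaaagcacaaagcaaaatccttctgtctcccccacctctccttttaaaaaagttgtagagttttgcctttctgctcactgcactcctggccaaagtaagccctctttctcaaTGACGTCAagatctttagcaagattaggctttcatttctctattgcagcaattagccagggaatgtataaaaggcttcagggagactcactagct
Its first base lies 95 bases before the start. TGACGTCA, which reads the same on both strands, occurs in 1.55% of 32851 RefSeq windows of 250 bases. The 8 called genes were searched for it and for CACGTG, TCACNCCAC and CCAAT on both strands, and 7 of them had a window. TGACGTCA was found in the Dio2 window alone among these 7. CACGTG and TCACNCCAC, letters bound by factors of carbohydrate and sterol response, were found in none of them (6.02% and 1.05% of all windows). CCAAT was present before Acss2, Lipf and one of the Me1 starts (33.8% of all windows). A match is a description of letters and shows no binding.

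Dio2 stood at 3.24, 4.49 and 3.43 normalised CPM in the Azin2-/- libraries, and at 0.618, 0.820, 0.647, 0.518 and 0.609 in WT. The lowest Azin2-/- library was several times above the highest WT library, and the muscle-rich Azin2-/- library was the highest of its group. Dio2 rose 5.74-fold (log2 fold change 2.52 ± 0.207, SE, edgeR adjusted p = 0.0168), and 5.18-fold without the pair (2.37 ± 0.245, adjusted p = 0.0388). The gene is lowly expressed: 121 to 131 reads in Azin2-/- libraries and 19 to 41 in WT. Leaving out 1 library at a time kept the log2 fold change between 2.37 and 2.63, but the adjusted p stayed under 0.05 only without WT replicate 2 or Azin2-/- replicate 2, and it reached 0.161 without Azin2-/- replicate 3.

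Acss2 (chromosome 2, 155517948 to 155585724) makes acetyl-CoA from acetate in the cytosol. Its level was 194, 147 and 163 normalised CPM in Azin2-/- and 68.3, 76.9, 101, 62.7 and 79.4 in WT, so the groups were apart in all 8 libraries. The log2 fold change was 1.11 ± 0.157 (adjusted p = 0.167), and without the pair Acss2 rose by 1.32 ± 0.118 on the log2 scale (adjusted p = 0.0291). Me1 (chromosome 9, 86581371 to 86695953), malic enzyme, yields cytosolic NADPH for lipid synthesis and is a known thyroid hormone target. It was at 787, 531 and 769 normalised CPM in Azin2-/- and at 395, 406, 514, 354 and 421 in WT. The lowest Azin2-/- and the highest WT value belong to the muscle-rich pair and nearly touch. Without the pair Me1 rose by 0.99 ± 0.101 (adjusted p = 0.0388), against 0.73 ± 0.167 in all 8 (adjusted p = 0.244).

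Krt79 (chromosome 15, 101929332 to 101940324) encodes a keratin known from skin glands. It stood at 25.3, 14.0 and 28.8 normalised CPM in Azin2-/- and at 8.75, 7.78, 7.09, 5.97 and 8.04 in WT, and rose by 1.83 ± 0.155 without the pair (adjusted p = 0.0291; 1.59 ± 0.222 and adjusted p = 0.167 in all 8). The other 15 markers of skin and mammary epithelium summed to 4.71 to 5.82 CPM in Azin2-/- and 3.15 to 40.4 in WT, and Krt5, Krt14 and Krt15 were too low to be tested. Ncan (chromosome 8, 70093085 to 70120873), the proteoglycan neurocan, was at 57.1, 31.3 and 56.7 in Azin2-/- and 20.9, 18.4, 18.7, 14.9 and 13.3 in WT. It rose by 1.76 ± 0.167 without the pair (adjusted p = 0.0388; 1.49 ± 0.217 and adjusted p = 0.167 in all 8). For both genes the 3 Azin2-/- libraries lay above all WT libraries, with the muscle-rich one lowest.

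Lipf (chromosome 19, 33961187 to 33976810), gastric lipase, and Gpc1 (chromosome 1, 92831645 to 92860779), the heparan sulphate proteoglycan glypican 1, were separated by genotype only once the pair was left out. Lipf was at 28.0, 3.19 and 22.1 normalised CPM in Azin2-/- and 8.91, 6.60, 7.35, 6.92 and 5.66 in WT, and the muscle-rich Azin2-/- library was the lowest of all 8. Gpc1 was at 169, 200 and 169 in Azin2-/- and at 82.8, 83.3, 201, 82.4 and 70.9 in WT, where the muscle-rich library was as high as the Azin2-/- ones. Without the pair Lipf rose by 1.84 ± 0.185 (adjusted p = 0.0388) and Gpc1 by 1.09 ± 0.0881 (adjusted p = 0.0291). In all 8 libraries their adjusted p were 0.470 and 0.476. Fgf2 (chromosome 3, 37348346 to 37410108), a growth factor for adipose progenitors and vessels that binds heparan sulphate, was at 23.2, 37.3 and 23.7 in Azin2-/- and 52.0, 44.8, 40.3, 48.8 and 53.1 in WT. All Azin2-/- values were below all WT values. Fgf2 fell by 1.08 on the log2 scale without the pair (SE 0.0929, adjusted p = 0.0291), and its log2 fold change in all 8 was -0.77 ± 0.176 (adjusted p = 0.244).

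The 8 calls made without the pair rest on 2 Azin2-/- libraries. With 1 more library left out, 0 genes were called without Azin2-/- replicate 1, WT replicate 1 or WT replicate 4, 2 without Azin2-/- replicate 3 (Saa3 and Ubd, neither among the 8), 8 without WT replicate 2 and 44 without WT replicate 5. Of the original 8, Acss2, Dio2, Fgf2, Gpc1 and Krt79 were still called without WT replicate 2, and all 8 without WT replicate 5.

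**Figure D1:**
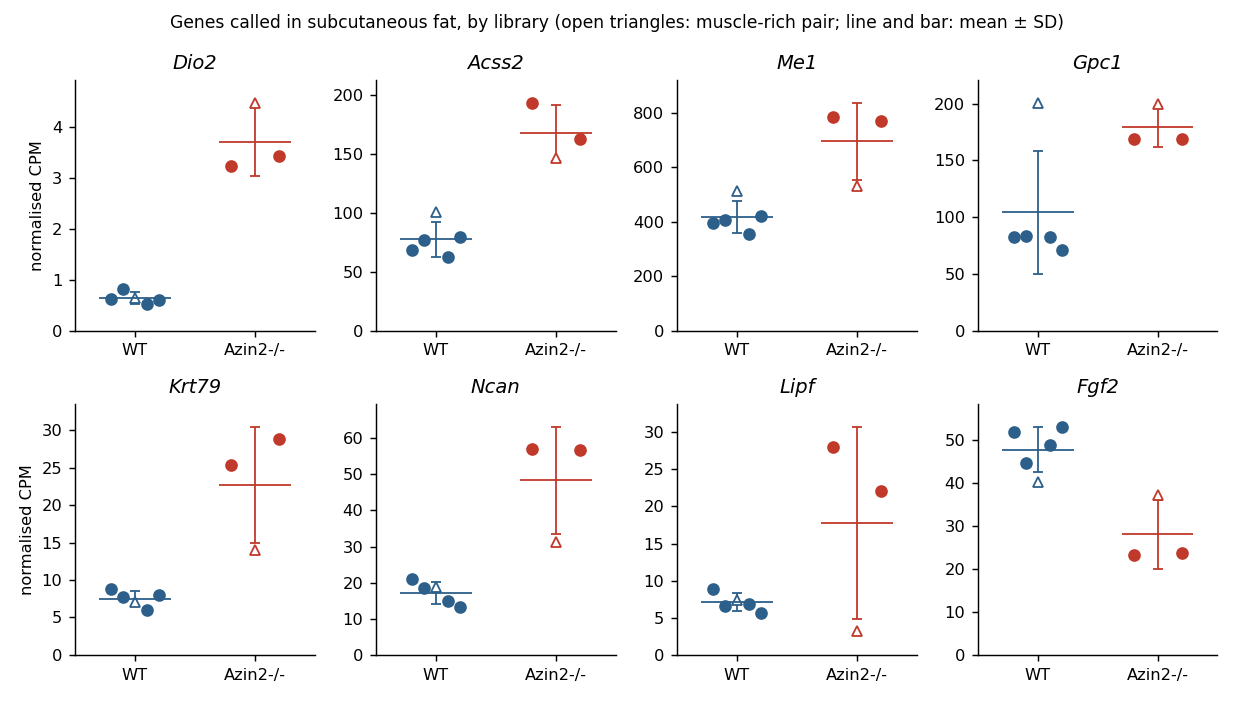
Normalised CPM of the 8 called genes in each of the 8 libraries, WT in blue and Azin2-/- in red, with the group mean (line) and SD (bar). Open triangles mark the muscle-rich pair; Dio2 is separated in every library, whereas Gpc1 and Lipf are separated only among the filled points.

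The genes of smallest p among those higher in all 3 Azin2-/- libraries, beside the called ones, did not pass the test in either fit. Gys2, the glycogen synthase isoform best known from liver, was at 50.4, 48.9 and 46.9 normalised CPM in Azin2-/- and 15, 25.7, 15.8, 15 and 16.8 in WT (log2 fold change 1.46 ± 0.178, adjusted p = 0.132; 1.43 and 0.106 without the pair). The Azin2-/- libraries lay within 4 CPM of each other, and the pair did not stand out. Uhrf1bp1, a lipid transfer protein of the bridge-like family, had the second smallest p, at 52.8 to 54.4 in Azin2-/- against 28.5 to 35.3 in WT (0.76 ± 0.0836, adjusted p = 0.0861). Slc36a2, a proton-coupled amino acid transporter of adipocytes, was at 415 to 436 against 197 to 283 (0.91 ± 0.123, adjusted p = 0.167). Hapln4, a hyaluronan and proteoglycan link protein, was at 2.02 to 4.30 against 0.591 to 0.899 (1.92 ± 0.291, adjusted p = 0.173).

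Of the 10 genes of smallest p that were lower in all 3 Azin2-/- libraries, Sulf1, which trims sulphate from heparan sulphate, was at 18.9 to 23.6 normalised CPM in Azin2-/- and 35.3 to 50.4 in WT (log2 fold change -0.99 ± 0.134, adjusted p = 0.167). Ntn4, the secreted netrin 4, was at 9.41 to 11.3 against 17.1 to 26.6 (-1.05 ± 0.167, adjusted p = 0.189). Dmkn, dermokine, was at 0.642 to 1.06 against 2.70 to 7.41 (-2.48 ± 0.409, adjusted p = 0.189). Chst1, a sulphotransferase of keratan sulphate, had a log2 fold change of -0.83 (adjusted p = 0.213), and thrombomodulin, Thbd, one of -0.75 (adjusted p = 0.213). Sytl2, Tmem159, Kcns3, Emp2 and Rps27rt completed the 10 lower genes, with log2 fold changes of -1.06 to -0.48. Rps27rt is a retrotransposed copy of Rps27, so its reads could be split between the copies. None of these 10 passed the test in either fit.

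Lipid synthesis was followed over 3 gene lists. All 20 fatty acid synthesis genes were tested, and 0 passed in the 8 libraries. Of them 4 stood apart as higher (Acly, Acss2, Me1 and Fasn) and 0 as lower, against 3.09% and 4.19% of all genes. The list median log2 fold change was 0.34, against 0.007 over all genes. Fasn, the fatty acid synthase, was at 2806, 2500 and 2850 normalised CPM in Azin2-/- and 1347, 2005, 1917, 993 and 1516 in WT (0.81 ± 0.222, adjusted p = 0.312). Acly, which cuts citrate to acetyl-CoA, was at 302, 267 and 248 against 192, 232, 176, 172 and 169 (0.53 ± 0.127, adjusted p = 0.255). Both enzymes were higher in every Azin2-/- library than in any WT library. Over the 21 genes of acetyl-CoA supply and histone acetylation 2 (Acly and Acss2) were apart as higher, with a median of 0.01. Acaca, the acetyl-CoA carboxylase that precedes Fasn, overlapped between groups (log2 fold change 0.33, 0.02 without the pair), as did Scd1, the main stearoyl-CoA desaturase (-0.28, adjusted p = 0.661), and Thrsp, a lipogenic thyroid hormone target (0.04, adjusted p = 0.968).

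Without the muscle-rich pair the fatty acid synthesis list had a median of 0.22, against -0.010 over all genes, with 2 called (Acss2, Me1). Of its genes 7 were apart as higher and 1, the desaturase Fads1, as lower, against 14.1% and 12.4% of all genes. Slc25a1, which exports citrate from mitochondria, was added there at 541 and 573 normalised CPM against 195 to 296 (log2 fold change 1.23, adjusted p = 0.0679), while the muscle-rich Azin2-/- library had 274. Triglyceride synthesis had 13 of 14 genes tested, 2 apart as higher, a median of 0.31, and 0.33 without the pair with 6 apart as higher. Agpat2, whose loss causes lipodystrophy, was at 681, 679 and 851 in Azin2-/- and 372, 454, 345, 323 and 394 in WT (0.97 ± 0.139, adjusted p = 0.167). Gpd1, which makes glycerol 3-phosphate, was at 1858, 2158 and 1977 against 1026, 1157, 1249, 1004 and 1329 (0.79 ± 0.132, adjusted p = 0.189). For both, the muscle-rich libraries lay within or close to the range of their own genotype. Dgat2, the last step, overlapped in the 8 libraries (0.65, adjusted p = 0.445). Without the pair it stood apart as higher (0.76, adjusted p = 0.321).

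Cholesterol biosynthesis is run by a set of enzymes under SREBP2. All 21 genes tested had log2 fold changes above 0 in the 8 libraries, with a median of 0.52, but 0 were called and 1, Nsdhl, stood apart. Nsdhl was at 67.9, 39.0 and 57.7 normalised CPM in Azin2-/- and 30.6, 37.4, 33.4, 25.7 and 30.1 in WT (0.80 ± 0.179, adjusted p = 0.244). The median of the list, as log2 difference from the WT mean, was 0.76, 0.19 and 0.49 in the Azin2-/- libraries and 0.09, 0.37, -0.10, -0.21 and -0.22 in WT. The muscle-rich Azin2-/- library thus lay inside the WT range, and WT replicate 2 above it. Without the pair the median was 0.64 with 0 called. There 10 genes were apart as higher and 1 (Fdft1) as lower, against 14.1% and 12.4% of all genes. Insig1, a feedback gene of the pathway, then had a log2 fold change of 1.02 (adjusted p = 0.125).

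Glycolysis and glucose entry had 19 genes tested and a median of 0.45 with 2 apart as higher. Without the pair the median was 0.29, with 11 apart as higher and 1 as lower (14.1% and 12.4% of all genes). Pfkl, a phosphofructokinase subunit, was at 205, 236 and 182 normalised CPM in Azin2-/- and 123, 126, 123, 143 and 145 in WT (0.65 ± 0.108, adjusted p = 0.189), and Eno1, enolase 1, had a log2 fold change of 0.32 (adjusted p = 0.369). Many other members are also strong muscle genes: Pfkm was at 1642 and 1352 in the pair and at 25.1 to 40.5 in the other 6 libraries. Slc2a4, the insulin-responsive glucose transporter, overlapped (0.27, and -0.11 without the pair). Apart from Gys2, no glycogen gene stood apart in the 8 libraries, and the median of the 12 tested was 0.50 with the pair and 0.00 without it. Insulin signalling genes had a median of -0.04 in both fits, with 0 of 17 apart in the 8 libraries. Without the pair 3 were apart as higher, against 14.1% of all genes.

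**Figure D2:**
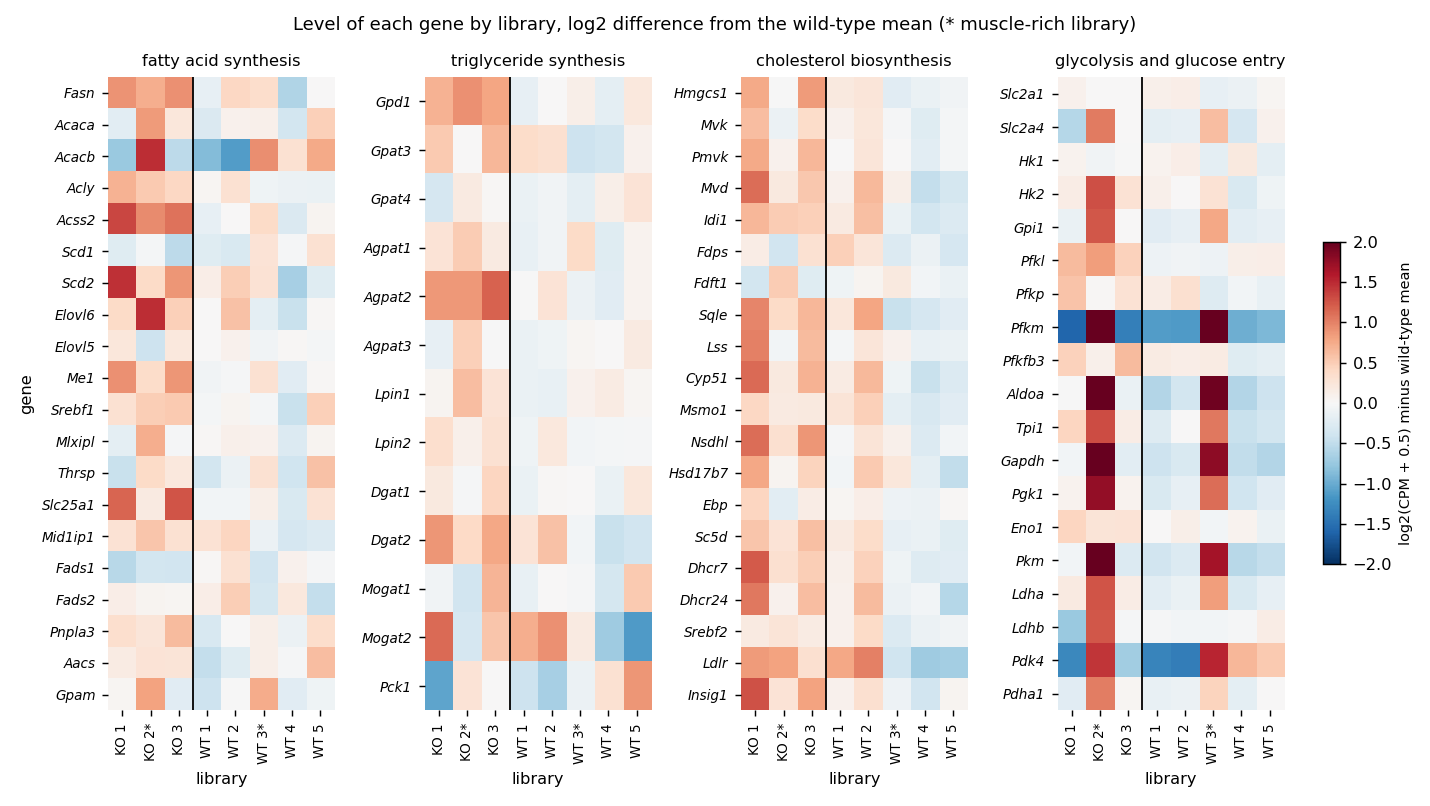
Log2 level of lipid and glucose genes in each library (KO, Azin2-/-) minus the gene's mean over the 5 WT libraries, after adding 0.5 CPM; colours end at 2 and -2, and asterisks mark the muscle-rich pair. Fasn, Acss2, Me1, Gpd1 and Agpat2 are above the WT mean in all 3 Azin2-/- libraries, as are most cholesterol genes in replicates 1 and 3; several glycolysis genes, such as Pfkm, are high in the pair.

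Dio2 belongs to the thermogenic program, and 19 of the 20 genes on that list were tested. In the 8 libraries the median log2 fold change was 1.44, with 1 called (Dio2). There 4 were apart as higher (Dio2, Otop1, Kcnk3 and Gk), against 3.09% of all genes. Without the pair it was 0.43, with 1 called, 5 apart as higher and 1, Ebf2, as lower (14.1% and 12.4% of all genes). By library the list median, relative to the WT mean, was -0.06, 2.17 and 0.53 in Azin2-/- and -0.18 to 0.02 in WT. Azin2-/- replicate 1 thus lay inside the WT range, and the muscle-rich replicate 2 was the highest. Ucp1, the uncoupling protein, was at 541 normalised CPM in Azin2-/- replicate 2, and at 0.667 and 3.08 in the other Azin2-/- libraries and 0.0563 to 1.31 in WT. Cidea, a lipid droplet protein of thermogenic fat, was at 260 in the same library and at 9.46 to 32.8 elsewhere. The muscle-rich WT library did not share this, with Ucp1 at 0.0563 and Cidea at 9.71, whereas Cox7a1, Fabp3 and Cox8b were higher in both muscle-rich libraries than in the other 6 (78.3 and 41.3 normalised CPM for Cox7a1, against 2.51 to 4.33 in the others).

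The adjusted p of Ucp1 was 0.331 in 8 libraries, with a log2 fold change of 8.45 ± 2.25, and 0.436 without the pair (1.56 ± 0.832). Zic1, a marker of classical brown fat, had 2 reads in Azin2-/- replicate 2, 18 in the muscle-rich WT library and 0 to 2 in the other 6. Lhx8 had 57 and 290 reads in the pair and 158 to 689 in the other 6. The high Ucp1 was thus in 1 library, and it was not shared by the WT library of like muscle level. Kcnk3, a potassium channel of adipocytes, was at 122, 127 and 133 normalised CPM in Azin2-/- against 92.6, 81.0, 84.0, 78.4 and 93.7 in WT (0.57 ± 0.0833, adjusted p = 0.167). Otop1, a proton channel found in brown fat, was at 45.7, 125 and 55.4 against 26.9, 24.9, 10.7, 19.0 and 27.1 (1.80 ± 0.394, adjusted p = 0.244). Its log2 fold change was 1.05 ± 0.154 without the pair (adjusted p = 0.1). Gk, the glycerol kinase that returns glycerol to triglyceride, was at 35.3, 29.1 and 22.4 against 17.3, 21.6, 12.8, 15.2 and 13.7 (0.84 ± 0.197, adjusted p = 0.255). These 3 were apart in the 8 libraries and not called. Ppargc1a, Prdm16 and Adrb3 overlapped between genotypes.

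**Figure D3:**
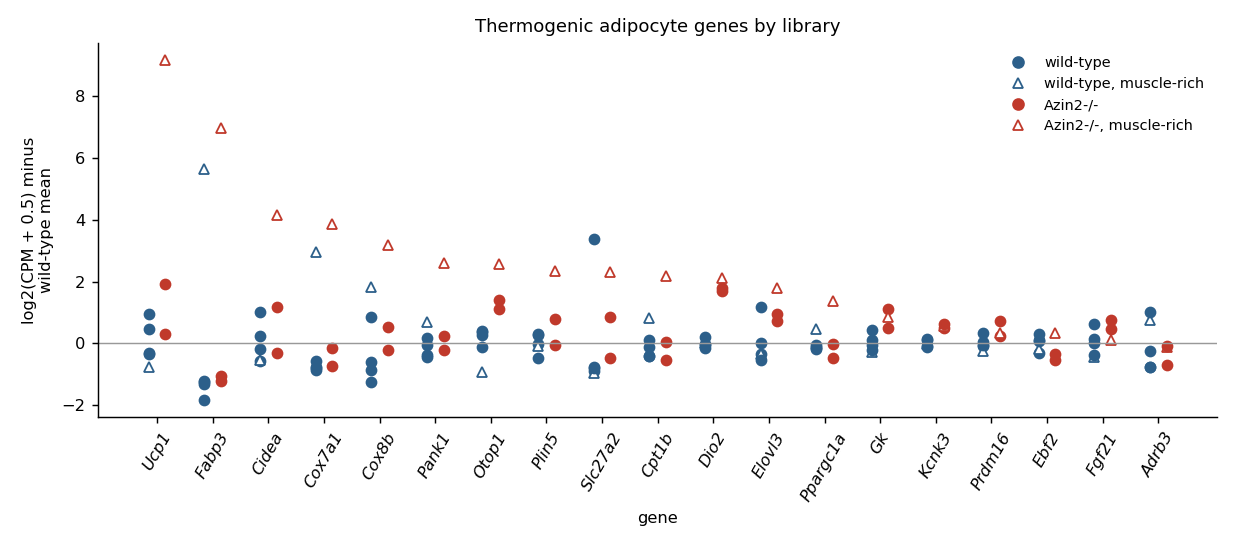
Log2 level of the 19 tested thermogenic genes in each library minus the WT mean, after adding 0.5 CPM, ordered by Azin2-/- replicate 2. Open triangles mark the muscle-rich pair: the red triangle is far above all other points for Ucp1 and Cidea, while Dio2 is high in all 3 Azin2-/- libraries.

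Of the other genes of the thyroid hormone pathway, 0 passed the test in the 8 libraries and Me1 passed without the pair. Dio1 and Dio3, the other deiodinases, were too low to be tested. Thra and Thrb, the thyroid hormone receptors, had log2 fold changes of -0.14 (adjusted p = 0.796) and -0.34 (adjusted p = 0.631). Of 17 genes tested in this pathway, 4 stood apart as higher (Dio2, Me1, Hr and Med1) and 0 as lower in the 8 libraries. The shares over all genes were 3.09% and 4.19%, and the list median was 0.12. Without the pair the median was 0.00, with the same number apart as higher and 3, Thra, Thrb and the coactivator Ncoa1, as lower. Over all genes these shares were 14.1% and 12.4%. Hr, a corepressor that is itself a thyroid hormone target, was at 227, 269 and 332 normalised CPM in Azin2-/- and 151, 132, 111, 107 and 58.1 in WT (1.30 ± 0.269, adjusted p = 0.244). Ucp1 is a member of both lists. In beta-adrenergic and cAMP signalling, 1 of 19 stood apart, Prkaca, the catalytic subunit of protein kinase A (0.36 ± 0.0997, adjusted p = 0.320), and the median was 0.01. Without the pair 4 stood apart as higher and 1 as lower, against 14.1% and 12.4% of all genes.

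In polyamine metabolism, 18 of 20 genes were tested and 0 called, with a median of 0.17, 0.03 without Azin2-/- replicate 2 and 0.15 without the pair. There 6 of 17 stood apart as higher (Azin1, Oaz2, Srm, Smox, Slc18b1 and Atp13a3; 14.1% of all genes) and Azin2 as lower. Azin1, the ubiquitous antizyme inhibitor, was at 90.4, 98.2 and 80.6 normalised CPM in Azin2-/- and 75.6, 78.9, 71.0, 61.8 and 69.4 in WT. It stood apart as higher where Azin2 stood apart as lower (log2 fold change 0.33 ± 0.100, adjusted p = 0.347). Odc1, the ornithine decarboxylase, and Amd1, Smox and Sms were highest in the muscle-rich pair: Smox was at 122 and 102 there and at 11.8 to 14.2 in the other 6. Their log2 fold changes in the 8 libraries carried SE of 0.387 to 1.25. Without the pair Odc1 had a log2 fold change of 0.31 (adjusted p = 0.427), Sat1, the acetylase that starts polyamine breakdown with acetyl-CoA, one of 0.05 (adjusted p = 0.858), and Srm, spermidine synthase, one of 0.40 (adjusted p = 0.296). Antizyme genes Oaz1 and Oaz2 had log2 fold changes of 0.07 and 0.19 there.

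Fatty acid oxidation genes had log2 fold changes above 0 for 20 of 20 in the 8 libraries and a median of 0.55. There 0 were called and 1, Decr1, stood apart as higher (3.09% of all genes). Without the pair the median was 0.28, and 6 stood apart as higher (14.1% of all genes). By library the list median was 0.05, 0.97 and 0.31 above the WT mean in Azin2-/- and between -0.19 and 0.28 in WT, so the high value was that of the muscle-rich library. Oxidative phosphorylation genes had a median of 0.41, and 0.11 without the pair, with 0 of 21 apart in either. Lipolysis genes had a median of 0.02, and 0.12 without the pair with 5 of 14 apart as higher (14.1% of all genes). Plin2, a droplet coat protein, was at 867, 491 and 672 normalised CPM against 403, 481, 422, 414 and 472 (0.63 ± 0.173, adjusted p = 0.312). Adora1, an antilipolytic adenosine receptor, was at 241, 219 and 266 against 155 to 195 (0.48 ± 0.105, adjusted p = 0.244). Both stood apart. Among adipogenic factors Cebpb (0.62, adjusted p = 0.203) stood apart as higher and Ebf1 (-0.58, adjusted p = 0.214) as lower, and Pparg overlapped (0.16, adjusted p = 0.826). Of 15 adipokines, Cfd, the serine protease adipsin, stood apart as lower, at 810, 1446 and 1398 against 2423, 2573, 2868, 2366 and 5056 (-1.33 ± 0.320, adjusted p = 0.256). Leptin (Lep, 0.23) and adiponectin (Adipoq, -0.16) overlapped.

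**Figure D4:**
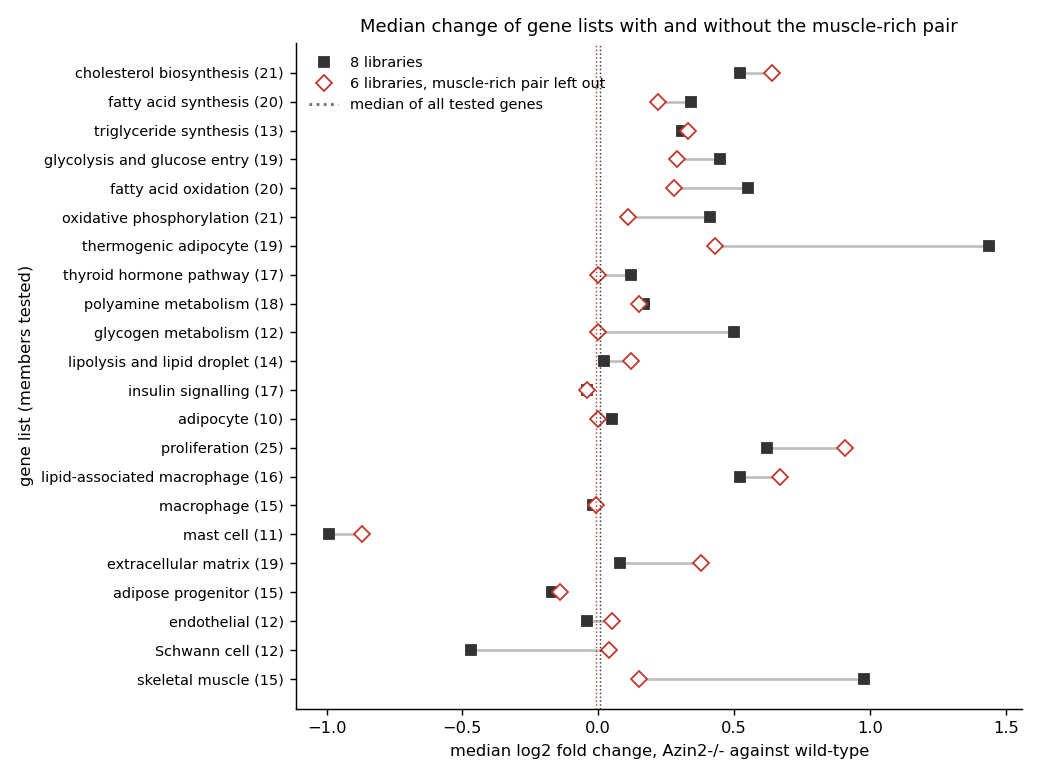
Median log2 fold change of 22 gene lists in all 8 libraries (squares) and in the 6 without the muscle-rich pair (open diamonds), with dotted lines at the medians of all tested genes. When the pair is left out, thermogenic (1.44 to 0.43), skeletal muscle (0.98 to 0.15), Schwann cell (-0.47 to 0.04) and glycogen (0.50 to 0.00) medians move most, and cholesterol and proliferation medians stay above 0.

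Cell types were read from marker lists. In whole tissue, fewer cells of a type and less RNA per cell cannot be told apart. Macrophage markers had a median of -0.02 over 15 genes, with 0 apart as higher and 2 as lower (3.09% and 4.19% of all genes). Cd163, the haemoglobin scavenger receptor, was at 25.7, 32.8 and 21.4 normalised CPM against 41.9, 52.0, 36.6, 86.1 and 53.7 (-1.02 ± 0.283, adjusted p = 0.320). Timd4, a receptor for apoptotic cells, was at 0.743 to 0.890 against 0.929 to 2.59 (-1.29 ± 0.327, adjusted p = 0.281). Without the pair Lyve1, a hyaluronan receptor of some resident macrophages, also stood apart as lower (-0.98, adjusted p = 0.144). Folr2 and Mrc1, which resident macrophages also carry, overlapped (-0.23 and -0.10 in the 8 libraries), with Azin2-/- replicate 1 the highest of all libraries for both. The general marker Adgre1 had a log2 fold change of 0.35 without the pair (adjusted p = 0.699). Summed macrophage markers were 704 to 1364 CPM in Azin2-/- and 911 to 1324 in WT there. Lipid-associated macrophage genes had a median of 0.52, and 0.67 without the pair. In the 8 libraries 1 of 16 stood apart (Plin2). Without the pair 5 did (Lpl, Fabp5, Ctsd, Plin2 and Cstb), against 14.1% of all genes apart as higher. Of the 5, Lpl, Fabp5 and Plin2 are also expressed by adipocytes. Trem2 and Gpnmb, which define these cells, were highest in Azin2-/- replicate 1 (32.9 and 163) and in Azin2-/- replicate 3 (10.3 and 51.5) within the WT range.

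Mast cell markers had a median of -0.99 over 11 tested genes, 0 above 0 and 0 called, with Mcpt4 and Tpsab1, 2 granule proteases, apart as lower. Mcpt4 was at 3.46, 2.52 and 3.03 normalised CPM against 6.62, 4, 4.81, 4.09 and 12.2. WT replicate 5 was high for most of these genes, and without it the median was -0.48. Proliferation genes had log2 fold changes above 0 for 25 of 25 in both fits, with medians of 0.62 and 0.91. None stood apart in the 8 libraries. By list median relative to the WT mean, the muscle-rich Azin2-/- library was at -0.20 against 1.01 and 0.71 in the other Azin2-/- libraries. Without the pair 18 of 25 stood apart as higher (14.1% of all genes). There Mki67 was at 20.1 and 14.9 against 6.29 to 12.5 (log2 fold change 1.01, adjusted p = 0.204). Of 19 matrix genes, Fn1, fibronectin, and Thbs1, thrombospondin 1, stood apart as lower in the 8 libraries (-0.72 and -0.98, adjusted p = 0.352 and 0.451) and 0 as higher, with a median of 0.08. Without the pair the median was 0.38, and 7 of 19 stood apart as higher (Col4a1, Col4a2, Col5a2, Col6a3, Postn, Sparc and Lox; 14.1% of all genes) and Thbs1 as lower, while Fn1 overlapped. By library the matrix median was 0.62, -0.59 and 0.22 in Azin2-/- relative to the WT mean, so the muscle-rich library was the lowest. Endothelial markers had a median of -0.04 and 0 of 12 apart. Cspg4, a proteoglycan of pericytes, was at 166, 156 and 198 normalised CPM against 99.5, 103, 65.0, 93.9 and 105, apart as higher (0.90 ± 0.158, adjusted p = 0.203; 0.87 ± 0.0950 and 0.0523 without the pair), while the smooth muscle and pericyte list had a median of -0.13. T and NK cell and B cell markers had medians of -0.08 and -0.61 and 0 apart, and the B cell median was 0.30 without WT replicate 4; without the pair Ighm, the heavy chain of IgM, and Trac were apart as higher and Cd8b1 as lower. Of 20 senescence and p53 genes 0 were called and 1, the lamin Lmnb1, was apart as higher. The direction is that of the RNA of each gene, and senescence itself was not tested. Without the pair 6 of 20 were apart as higher (Cdkn2a, Cdkn2b, Trp53, Sesn2, Lmnb1 and Glb1) and Sesn1 as lower, against 14.1% and 12.4% of all genes. Cdkn1a and Cdkn2a, cell cycle inhibitors used as senescence markers, overlapped in the 8 libraries (0.17 and 1.05, adjusted p = 0.804 and 0.557), and Cdkn2a stood at 0.0282 to 0.543 normalised CPM.

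The other question is whether loss of Azin2 acts alike in the epigonadal depot. The difference between the genotype effects was tested over 16 libraries, and edgeR called 0 of 18033 genes (0%). There were 2016 genes with unadjusted p under 0.05, and the DESeq2 Wald test called 158 and limma-voom 2718. Without the muscle-rich pair edgeR again called 0. Libraries of the depots share some animal marks, and the labels do not say whether a shared mark is the same mouse. For the genotype effect in SAT, 1 fit of all 16 libraries called 7 genes. For the genotype effect in GAT, the same fit called 1370 of 18033 genes (7.60%). There Dio2 was at 1.08, 1.91, 2.59 and 2.18 normalised CPM in Azin2-/- and 0.854, 0.602, 0.475 and 1.14 in WT, and it rose there too (1.33 ± 0.299, adjusted p = 0.0223). The groups overlapped in GAT, with Azin2-/- replicate 1 (1.08) below WT replicate 4 (1.14), and were well separated in SAT. The SAT effect minus the GAT effect was 1.20 ± 0.421 (unadjusted p = 0.0126, adjusted p = 0.367). Of the other 7 genes called in SAT without the pair, 0 passed in GAT: Ncan (0.80, adjusted p = 0.0550), Fgf2 (-0.73, adjusted p = 0.0583) and Lipf (1.47, adjusted p = 0.0949) had the smallest p, and Acss2, Me1, Krt79 and Gpc1 had log2 fold changes of 0.15 to 0.19. For these 4 the depot difference was 0.95, 0.59, 1.41 and 0.63 (adjusted p of 0.312, 0.390, 0.312 and 0.528). This and every other depot difference given here comes from the fit of 16 libraries, which includes the muscle-rich pair. Of the genes of small p that were not called in SAT, Gys2 (1.07, adjusted p = 0.0361), Hapln4 (1.94, adjusted p = 0.0220), Uhrf1bp1 (0.48, adjusted p = 0.0320), Chst1 (-0.98, adjusted p = 0.0199), Thbd, Tmem159, Kcns3 and Emp2 passed in GAT, in the direction seen in SAT. Of these, Hapln4, Uhrf1bp1, Chst1, Thbd and Emp2 overlapped between groups in GAT, where Azin2-/- replicate 1 lay within the WT range. Gys2, Tmem159 and Kcns3 stood apart in GAT. Slc36a2, Agpat2, Kcnk3, Sulf1, Ntn4, Dmkn, Rps27rt and Sytl2 did not pass in GAT. Sytl2 had a log2 fold change of 0.09 in GAT and -1.06 in SAT. Its SAT effect minus the GAT effect was -1.14 (unadjusted p = 0.000644, adjusted p = 0.312). Of all 104 named genes 23 passed in GAT, of which 14 were apart in the 8 SAT libraries in the same direction and 9 overlapped there. Many genes were named because their SAT groups were apart, so the split into 14 and 9 cannot measure agreement between depots. The 14 include the list members Otop1 (2.22, adjusted p = 0.0151), Azin1 (0.38, adjusted p = 0.0459), Plin2 (1.01, adjusted p = 0.0281) and Cfd (-1.71, adjusted p = 0.0458). The 9 were Adgre1 (1.89 in GAT, adjusted p = 0.0151), Gpnmb (2.28, adjusted p = 0.0301), Atp13a2, a lysosomal polyamine exporter (0.94, adjusted p = 0.0151), Atp13a3, Oaz3, Scd1, Thrsp, Adipoq and Adrb3. The SAT effect minus the GAT effect was -1.61 for Adgre1 and -0.92 for Atp13a2 (unadjusted p = 0.00419 and 0.000832, adjusted p = 0.325 and 0.312). Fn1 had opposite signs (-0.72 in SAT and 0.54 in GAT, unadjusted p of the difference 0.000907, adjusted p = 0.312). Azin2 fell in GAT by 0.73 on the log2 scale (adjusted p = 0.0257), without a called difference from SAT (-0.23, adjusted p = 0.740).

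**Figure D5:**
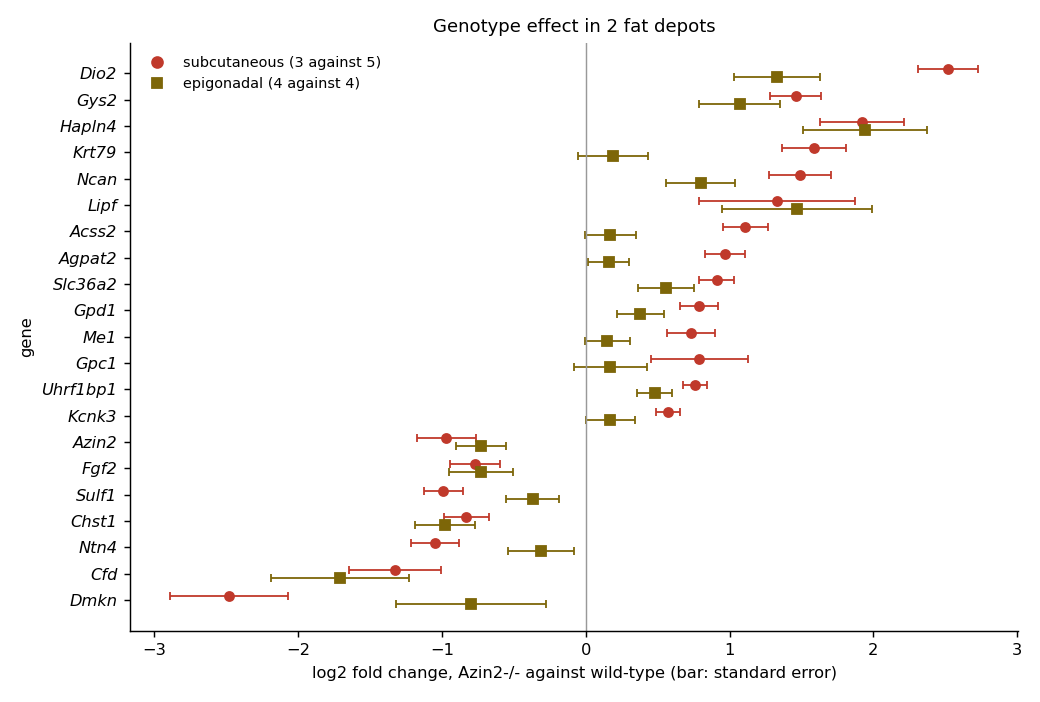
Log2 fold change of 21 named genes between Azin2-/- and WT in SAT (circles, 8-library fit) and GAT (squares, 16-library fit), with SE bars. Dio2, Acss2, Krt79 and Agpat2 are farther from 0 in SAT, Hapln4, Lipf and Cfd are not, and no difference between depots passed the test.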

How the data were processed

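RNA of whole adipose tissue was sequenced from stranded total RNA libraries, per the labels' protocols. The values the authors deposited are raw counts per gene, 1 table per library. The tools that the submitters' processing notes name are HTSeq (0.6.1p1), STAR and cutadapt, with the build GRCm38 (mm10). The labels do not give the other versions, the counting mode or the strand setting. Of 49585 gene identifiers, 49326 matched GENCODE M21.

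Counts were fitted with edgeR 4.0.16 in R 4.3.3 (filterByExpr with minimum count 10 and minimum total 15, TMM factors, robust quasi-likelihood test, Benjamini-Hochberg adjustment over all genes tested, threshold 0.05). SAT was fitted with 8 libraries and again with 6. The SE is the log2 fold change divided by the root of F. Normalised CPM uses the TMM factors; marker sums use CPM of total counts. Total counts and the muscle level were tested between genotypes with the exact permutation test of scipy 1.17.1, two-sided, whose smallest p here is 0.0357. Depth and sampling noise matter most for genes under 100 reads. Titles carry animal marks, of which 2 recur in both genotypes of SAT and several in both depots; the labels do not say that equal marks are one animal or that libraries are separate animals, so p-values measure only the spread between libraries, and the depot test treats all 16 as independent. No 2 replicates held identical counts.

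Members, gene lists and tests were chosen with earlier results of these data known. Named genes were Azin2, all called genes, 10 genes per direction of smallest p whose groups were apart (protein-coding, mean log2 CPM of at least 0), up to 3 such members per list, and all tested thermogenic and polyamine genes with a fixed set of marker and lipid genes; any others (for example Slc25a1, Mki67, Lyve1, Insig1) were chosen with their values in view. Other settings tried were size factors of DESeq2 1.42.0 within edgeR, the DESeq2 Wald test, limma-voom (limma 3.58.1) with quality weights, no filter, larger fits, a muscle covariate, the animal mark as block, and leaving out each library. The edgeR fits of SAT, of SAT without the pair and of the depot difference were tried on simulated counts. The other tests were not. Promoter windows come from RefSeq (GRCm38.p6); 7 of the 8 called genes had one. Single values of 2 list members are not reported here.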

Additional observations from a re-analysis of the deposited data

Results flagged for a closer look

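Of 106 WT groups of 5 libraries examined (named genes, the muscle level and total counts), 21 held 1 library farther from the others than Dixon's 95% limit for 5 values; chance flags about 1 in 20. In 12 of the 21 it was WT replicate 3, of the muscle-rich pair. There the summed skeletal muscle level was 68613 CPM, and in normalised CPM the library stood high for Acta1 (9837), Amd1 (210), Odc1 (185), Smox (102), Sms (70.3), Fabp3 (87.9), Cox7a1 (41.3), Ppargc1a (12) and Gpc1 (201), and low for Cspg4 (65.0) and Sat1 (58.3). These values move with the muscle markers, and the part of muscle RNA in each was not tested.

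WT replicate 2 was high for Arg1 (13.0), Slc27a2 (12.6), Elovl3 (1.34) and Gys2 (25.7). WT replicate 5 was high for Cfd (5056), Slc36a2 (283), Thrb (59.6) and Tpsab1 (1.16). WT replicate 4 was high for Thbs1 (330).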

How the results depend on the processing

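In the 8 libraries the count of called genes was 1 with DESeq2 size factors, without a filter and with the muscle covariate, and Dio2 was that gene each time. It was 338 with the DESeq2 Wald test, 295 with limma-voom (189 shared by both), 7 in 1 fit of 16 libraries, 13 in 1 fit of 24, and 0 to 4 when 1 library was left out. With the animal mark as a replicate block it was 0; the 2 marks shared between genotypes do not say that libraries are paired, and the correlation of deviations was 0.89 for the muscle-rich pair and 0.62 for the other, against 0.68, 0.66 and 0.63 for the highest pairs with different marks. Without the pair, 8 genes became 691 with DESeq2, 75 with limma-voom, 124 without a filter and 0 to 44 with 1 library left out; a block could not be fitted there, since no residual degrees of freedom remain. The depot difference, 0 in edgeR, gave 158 with DESeq2, 2718 with limma-voom, 0 with the block, and 0 to 107 with 1 library left out (107 without GAT Azin2-/- replicate 1). The genotype difference of the muscle level was 11687 CPM, -13759 to 25368 with 1 library left out, and it reversed without Azin2-/- replicate 2; that of total counts was -4.41 to -0.364 megareads. Of 1757 values of named genes under alternatives, 1591 kept direction and side of the threshold, 7 lost the call (all Dio2: 6 libraries left out in turn, and the block, 2.64), 102 gained one, 57 turned sign without a call in either setting, and 0 turned sign with one. Of 470 list medians, 16 moved beyond the spread between libraries. The causes were not tested. Depth limits Dio2 and other genes with few reads.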
